A study of Mus musculus with 20 samples.

Results

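Heme synthesis and iron handling were followed in skeletal muscle through 8 genes: Alas1, Alas2, Cpox and Fech, which encode enzymes of heme synthesis; Hmox1, which encodes the heme-degrading enzyme heme oxygenase 1; Tfrc, the transferrin receptor; Fth1, the ferritin heavy chain; and Mb, the oxygen-binding heme protein myoglobin. Their probe sets were taken by gene symbol from the platform's annotation, which gave 20 of the 22690 probe sets on the array. Of these 20, 15 were bright enough to be tested. The other 5 were 3 control probe sets for Tfrc, which were left out with all control probe sets, and 1 dim probe set each for Tfrc and Mb.

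RNA came from 20 mice in 4 groups of 5: transgenic trained (titles TGT), transgenic untrained (TGUT), wild-type trained (WTT) and wild-type untrained (WTUT). The series title describes MHC-I overexpression and endurance training, an abbreviation left unexplained there. The promoter that drives the transgene, the strain, muscle, age, sex and training protocol could not be read from the labels. The description field gives all 20 mice as trained transgenics, which goes against the titles and source names; groups follow the titles, with which the source names match in all 20. Each mouse has 1 array, and mice are named by their titles.

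Values are the authors' intensities on a linear scale. Array medians lay between 157 and 175, and the number of arrays limits the precision. Tests with limma, all two-sided, were run on log2(intensity + 66.7), a scale that understates changes of dim genes, and a probe set was called at a Benjamini-Hochberg adjusted p under 0.05 over 13576 probe sets. All 9 skeletal muscle markers passed the brightness filter, and their summed intensity was 140093 to 145977 in TG trained, 138749 to 145121 in TG untrained, 136366 to 140148 in WT trained and 137242 to 143748 in WT untrained mice. The array of wtt-137 had 822 empty cells and that of TGT-133 had 386, and the other 18 arrays had fewer. For the tested probe sets of Alas1 and Tfrc, where wtt-137 read highest, training differences averaged over genotypes are also given without it. Intensities of different probe sets were not compared, and in whole tissue fewer cells of a type and less RNA per cell cannot be told apart.

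Heme is made in a pathway that begins and ends in the mitochondrion. Aminolevulinate synthase catalyses the first, rate-limiting step; ALAS1 is the form used by most tissues and ALAS2 the form of developing red blood cells. Coproporphyrinogen oxidase, from Cpox, acts late in the pathway, and ferrochelatase, from Fech, inserts iron as the last step. Cells take up transferrin-bound iron through the transferrin receptor and store iron in ferritin, and iron regulatory proteins control both messages.

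The first-step gene Alas1 was higher in trained mice of both genotypes. Probe set 1424126_at, the brighter of 2 for Alas1, read 1102, 984, 937, 1048 and 1051 in TG trained mice, against 769, 857, 789, 799 and 746 in TG untrained mice. It read 1040, 894, 1273, 1061 and 760 in WT trained mice, against 581, 623, 735, 692 and 751 in WT untrained mice. Every trained mouse lay above every untrained mouse of its own genotype, in both genotypes. Of 12670 probe sets with no empty cell in either comparison, 0.134% had this arrangement. In transgenic mice alone 1.15% of 13150 had it, and in wild-type mice alone 1.86% of 12927. Group means were 1024 ± 64.2 in TG trained, 792 ± 41.4 in TG untrained, 1005 ± 193 in WT trained and 676 ± 72.8 in WT untrained mice (SD, n = 5 each).

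Averaged over genotypes, training raised Alas1 by 0.43 ± 0.07 log2 (SE; 1.35-fold, 95% interval 1.22 to 1.49; limma adjusted p = 0.00427), rank 20 of 13576 by p. The second probe set, 1455282_x_at, whose suffix marks probes that can cross-hybridise, rose by 0.36 ± 0.08 (adjusted p = 0.0182). It averaged 478 ± 76.6 in TG trained and 378 ± 33.1 in TG untrained mice, and 488 ± 88.6 in WT trained and 342 ± 46.2 in WT untrained mice (SD, n = 5 each). Here the groups overlapped, with TGT-133 at 349 and WTT-144 at 364 the lowest trained mice. Across the 20 mice the 2 probe sets had a Pearson r of 0.877, from the same arrays.

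Within a single genotype, Alas1 did not pass the test, and in wild-type mice 0 of 13576 probe sets did. By unadjusted limma p, 1424126_at ranked 4 there, and 389 in transgenic mice, where 0.309% were called. The training difference for 1424126_at was 0.35 ± 0.10 log2 in transgenic mice (limma adjusted p = 0.0875) and 0.52 ± 0.10 in wild-type mice (adjusted p = 0.145). Each passed in 1 of 20 fits that left out 1 mouse: in transgenic mice without wtt-137 (0.35 log2, limma adjusted p = 0.0474), which is not in that comparison but adds to the shared spread, and in wild-type mice without WTT-144 (0.60 log2, limma adjusted p = 0.0236). The difference between these effects was -0.17 log2, with a 95% interval from -0.46 to 0.12 (limma adjusted p = 1). Leaving out wtt-137, the highest Alas1 mouse, gave an averaged difference of 0.39, which was the lowest of 20 such fits, and all 20 kept the call. Without this mouse the averaged difference on 1455282_x_at was 0.33, and the wild-type difference on 1424126_at was 0.43.

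**Figure D1:**
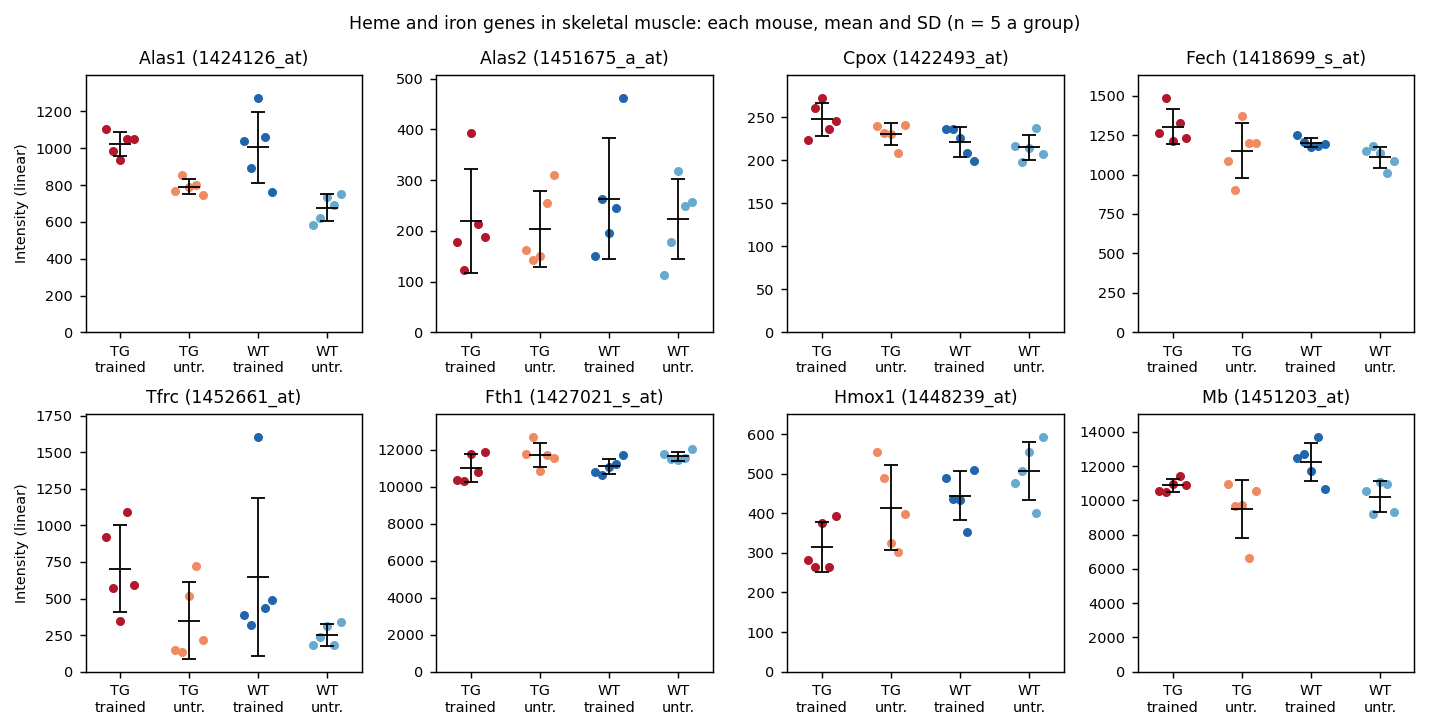
Intensity on a linear scale of the brightest probe set of each of the 8 genes, in TG trained, TG untrained, WT trained and WT untrained mice; dots are mice and bars are group means with SD (n = 5 each). For Alas1 all trained mice (937 to 1102 in TG, 760 to 1273 in WT) lie above all untrained mice of their genotype (746 to 857 in TG, 581 to 751 in WT).

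Promoter windows of 250 bases before to 50 bases after the annotated start were found in RefSeq (GRCm38.p6) for 6 of the 8 genes, 11 windows in all. They were searched on both strands for 3 motifs: CATGCGC, the core letters of the NRF-1 motif; ACGTG, the core of the hypoxia response element; and AGATAA, which the GATA factors bind. The 3 windows shown belong to the 2 genes called with training and to Alas2, the red-cell form. Capitals mark the motif, which in the Alas2 window is read from the other strand as TTATCT.
Alas1: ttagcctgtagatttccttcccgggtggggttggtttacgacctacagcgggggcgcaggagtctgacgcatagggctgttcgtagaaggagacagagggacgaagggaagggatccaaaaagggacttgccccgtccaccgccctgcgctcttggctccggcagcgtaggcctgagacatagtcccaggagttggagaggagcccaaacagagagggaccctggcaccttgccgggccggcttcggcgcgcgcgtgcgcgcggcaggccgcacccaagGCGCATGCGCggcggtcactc
Tfrc: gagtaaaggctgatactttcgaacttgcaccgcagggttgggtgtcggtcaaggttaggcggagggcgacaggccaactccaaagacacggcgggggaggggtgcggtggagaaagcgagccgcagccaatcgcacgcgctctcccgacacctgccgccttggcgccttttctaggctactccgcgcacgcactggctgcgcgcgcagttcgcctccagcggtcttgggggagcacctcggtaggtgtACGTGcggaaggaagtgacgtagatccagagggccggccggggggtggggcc
Alas2: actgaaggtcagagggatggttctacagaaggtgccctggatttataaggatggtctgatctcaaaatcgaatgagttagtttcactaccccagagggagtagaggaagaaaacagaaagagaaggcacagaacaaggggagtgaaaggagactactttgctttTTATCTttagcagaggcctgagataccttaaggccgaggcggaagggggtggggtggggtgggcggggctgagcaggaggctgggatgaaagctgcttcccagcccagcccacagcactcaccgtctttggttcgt

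The Alas1 window shown lies at chr9:106247905-106248204 on the minus strand, and its NRF-1 letters occur on both strands, at 30 to 36 and 33 to 39 after the start, which overlap. The Tfrc window shown lies at chr16:32608646-32608945 on the plus strand, with ACGTG from position -2 to 3. Alas1 and Tfrc each have a second window, from another annotated start, that overlaps the one shown. Counted from those starts the same letters lie before the start, from -195 to -186 in Alas1 and from -228 to -224 in Tfrc. The Alas2 window lies at chrX:150547167-150547466 on the plus strand, with the GATA letters from -86 to -81. Of 32851 such windows in the table, 3.91% hold the NRF-1 letters, 19.6% hold ACGTG and 11.2% hold AGATAA. The Cpox window also holds ACGTG and AGATAA, and no window of Mb or Fth1 holds any of the 3. These matches describe letters and do not show that a factor binds.

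Of the 15 tested probe sets, 3 were called in the training comparison averaged over genotypes, all higher in trained mice: the 2 for Alas1 and 1 for Tfrc. Over all probe sets tested, 4.99% were called in this comparison and 2.41% were called higher. The median difference of the 15 was 0.10 log2, with 12 above 0, against a median of 0.0019 over all probe sets tested. Of the 15, 7 had an unadjusted p under 0.05, against 20.7% of all tested. Several of the 15 measure the same gene, so they are not 15 separate observations. The genes were also chosen with earlier results of these data known, so these shares and medians are descriptions and no test.

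Cpox, which makes protoporphyrinogen, did not pass the test with training. Its brighter probe set 1422493_at averaged 247 ± 19.1 in TG trained, 230 ± 13.1 in TG untrained, 221 ± 17.0 in WT trained and 215 ± 14.3 in WT untrained mice (SD, n = 5 each). The training difference was 0.06 ± 0.04 log2 (limma adjusted p = 0.453), and that of 1422492_at was 0.10 ± 0.08 (adjusted p = 0.579). These 2 probe sets had an r of 0.392 over the 20 mice.

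Fech, the last enzyme, has 4 probe sets, and 1427696_at did not follow the other 3 from mouse to mouse. The brightest, 1418699_s_at, averaged 1304 ± 110 in TG trained, 1152 ± 172 in TG untrained, 1200 ± 28.9 in WT trained and 1110 ± 67.02 in WT untrained mice (SD, n = 5 each). Its training difference was 0.14 ± 0.06 log2 (limma adjusted p = 0.164). The other 3 differed by 0.01 to 0.09 log2, with adjusted p from 0.618 to 0.972. Probe sets 1418698_a_at and 1449181_at had an r of 0.856, and 1418699_s_at had 0.667 and 0.723 with them, in that order. By contrast, 1427696_at, near the brightness filter at 113 to 145.6, had r between -0.163 and 0.0421 with the other 3.

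Alas2, the red-cell form, varied widely inside each group. It read 178, 122, 394, 213 and 189 in TG trained, 162, 142.2, 151, 256 and 310 in TG untrained, 151, 264, 196, 245 and 462 in WT trained, and 112, 179, 318, 248 and 257 in WT untrained mice. All 4 groups overlapped. The training difference was 0.11 ± 0.18 log2, with a 95% interval from -0.26 to 0.49 (limma adjusted p = 0.799), and 0.019 without TGT-133.

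The Alas2 level followed the signal of several globin probe sets, but not of all, from mouse to mouse. Of 15 globin probe sets on the array, 6 had r above 0.9 with Alas2, and the other 9 had r from -0.371 to 0.700. Among the 7 that were tested, 5 had r above 0.9, and the other 2 were 1 probe set each for Hbb-b2 (0.700) and Hba-a1 (-0.201). The closest match to Alas2 among tested probe sets with a single symbol was Hba-x, annotated as an embryonic alpha-like globin (r = 0.944 over 20 mice, also 0.944 within groups), followed by Srsf6 (0.942) and Cdkn2d (0.935). Another 2 globin probe sets, chosen after their values were seen, carry several symbols each and name no single gene: 1417184_s_at, annotated to 4 beta-globin genes, had r = 0.938, and 1428361_x_at, annotated to 2 alpha-globin genes, had r = 0.935. The mouse with the highest Alas2, WTT-144 at 462, read 12160 on 1417184_s_at, and the lowest, WTUT-130 at 112, read 4200. These points share their arrays, and the correlations are given as descriptions. Of 11 red blood cell markers on the array, 6 passed the filter, and 0 were called with training or the transgene. The summed level of the 11 was 1724 to 1914 in TG trained, 1617 to 1779 in TG untrained, 1589 to 2021 in WT trained and 1538 to 1890 in WT untrained mice. Probe sets with several globin symbols do not enter this sum, and its r with Alas2 was not computed. The amount of blood in each sample was not measured, and its part in Alas2 was not tested.

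**Figure D2:**
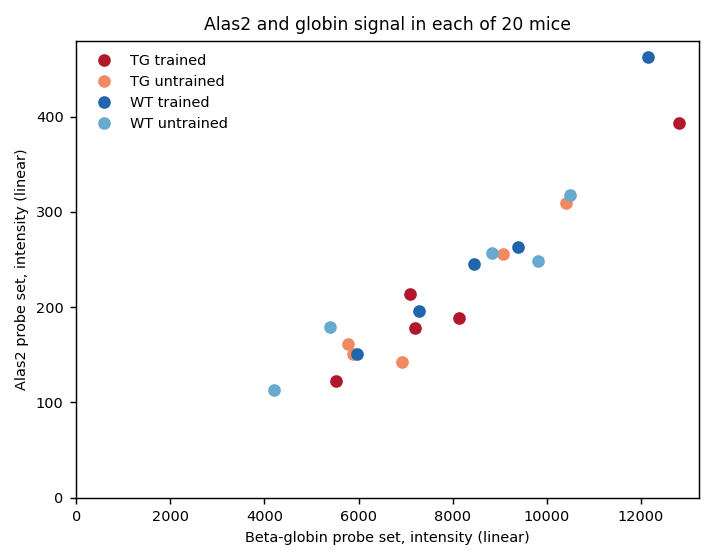
Alas2 intensity (1451675_a_at, linear) against the intensity of the beta-globin probe set 1417184_s_at (linear) in each of 20 mice, coloured by group. Alas2 and the signal of this probe set rise together in all 4 groups (r = 0.938 over 20 mice), from WTUT-130 (4200 and 112) to WTT-144 (12160 and 462) and TGT-133 (12814 and 394).

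Tfrc, which brings transferrin-bound iron into the cell, had the highest fold difference among the 8 genes but also the widest spread. Probe set 1452661_at read 922, 573, 344, 1093 and 591 in TG trained mice, against 145.5, 137.5, 520, 725 and 218 in TG untrained mice. It read 388, 322, 1602, 434 and 492 in WT trained mice, against 186, 237, 311, 180 and 341 in WT untrained mice. In WT mice 4 of 5 trained mice lay above every untrained mouse, and in TG mice 2 of 5 did. Group means were 705 ± 300 in TG trained, 349 ± 262 in TG untrained, 647 ± 537 in WT trained and 251 ± 72.9 in WT untrained mice (SD, n = 5 each).

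Averaged over genotypes, training raised Tfrc 1452661_at by 0.99 ± 0.28 log2 (SE; 1.99-fold, 95% interval 1.32 to 3.004; limma adjusted p = 0.0479). Without wtt-137, which stood at 1602, the difference was 0.81 and the call was lost (limma adjusted p = 0.0769). The call was kept in 5 of 20 fits that each left out 1 mouse: without TGT-133, TGUT-145, TGUT-146, wtt-134 or WTT-144. Without any 1 of the other 15 mice it was lost, with adjusted p up to 0.0982 (without TGT-128). Within a genotype the differences were 1.02 ± 0.40 log2 in transgenic mice (limma adjusted p = 0.193) and 0.97 ± 0.40 in wild-type mice (adjusted p = 0.527). Without wtt-137 the wild-type difference was 0.60 (limma adjusted p = 0.936).

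The Tfrc probe sets did not agree in size. On 1422966_a_at the training difference was 0.16 ± 0.09 log2 (limma adjusted p = 0.382), and 0.091 without wtt-137. The dim 1422967_a_at, below the brightness filter, averaged 102 ± 17.7 in TG trained, 75.7 ± 17.1 in TG untrained, 95.5 ± 26.1 in WT trained and 70.5 ± 5.17 in WT untrained mice (SD, n = 5 each). In a fit with no filter it differed by 0.24 ± 0.07 log2 (limma adjusted p = 0.0606). Over the 20 mice, 1452661_at had r = 0.933 with 1422967_a_at and 0.604 with 1422966_a_at.

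The 3 Tfrc control probe sets cover the 3′ end, the middle and the 5′ end of the message. The middle one read 115 to 151 in TG trained, 89.0 to 131.3 in TG untrained, 86.3 to 183 in WT trained and 99.4 to 131.8 in WT untrained mice, with wtt-137 the highest. The 3′ control had empty cells in TGT-140 and wtt-137, which were the 2 mice with the highest 1452661_at values. Its r with 1452661_at was 0.473 over the other 18 mice, against 0.744 for the middle and 0.767 for the 5′ control over 20.

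**Figure D3:**
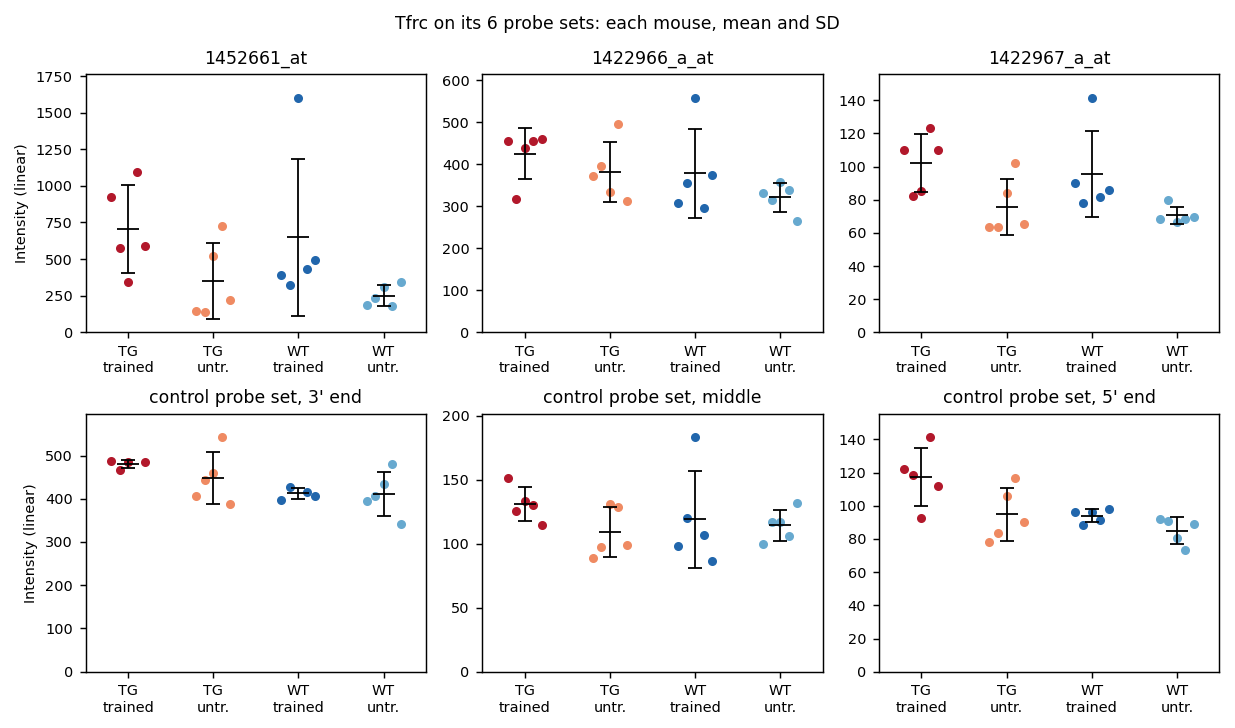
Intensity on a linear scale of the 6 Tfrc probe sets by group (TG trained, TG untrained, WT trained, WT untrained); dots are mice and bars are group means with SD. On 1452661_at, wtt-137 stands at 1602 above all other mice, and the 3′ control has no value for TGT-140 and wtt-137.

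Fth1, whose product stores iron, was bright and nearly level. Probe set 1427021_s_at averaged 11034 ± 746 in TG trained, 11719 ± 657 in TG untrained, 11100 ± 422 in WT trained and 11663 ± 241 in WT untrained mice (SD, n = 5 each). The training difference was -0.08 ± 0.03 log2 (limma adjusted p = 0.147), and for 1448771_a_at it was -0.06 ± 0.05 (adjusted p = 0.496). The 2 probe sets had an r of 0.0609 over the 20 mice.

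Hmox1, which opens the heme ring and releases iron, was lowest in the TG trained group. It read 283, 264, 375, 264 and 393 in TG trained, 556, 489, 326, 303 and 398 in TG untrained, 490, 437, 434, 353 and 510 in WT trained, and 476, 507, 554, 401 and 592 in WT untrained mice. In each comparison of 2 neighbouring groups the mice overlapped. The training difference was -0.24 ± 0.10 log2 (limma adjusted p = 0.169). The transgene difference, averaged over training, was -0.35 ± 0.10 (adjusted p = 0.081). It passed in 1 of 20 fits that left out 1 mouse (without TGUT-131, -0.40, adjusted p = 0.0467).

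Of 12 macrophage markers on the array, 7 passed the filter. The summed level of all 12 was 2112 to 2709 in TG trained, 2104 to 2463 in TG untrained, 2416 to 2992 in WT trained and 2164 to 2455 in WT untrained mice. None of the 7 was called with the transgene, and none of the 12 was at 0. All 7 had differences below 0 in transgenic against wild-type trained mice (limma, -0.41 to -0.01 log2). Of them, 3 had an unadjusted limma p under 0.05, against 12.5% of all tested probe sets. The Hmox1 difference was also below 0 there (-0.43 log2). In untrained mice 4 of the 7 were above 0, with a median of 0.05 log2, whereas Hmox1 had -0.27. Averaged over training the 7 had a median of -0.03, and their part in Hmox1 was not tested. The tested gene most like Hmox1 was Gclm, which encodes a subunit of the enzyme that starts glutathione synthesis (r = 0.840 over 20 mice, 0.675 within groups).

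Mb, which stores oxygen in muscle, averaged 10870 ± 382 in TG trained, 9514 ± 1682 in TG untrained, 12246 ± 1122 in WT trained and 10217 ± 900 in WT untrained mice on 1451203_at (SD, n = 5 each). The training difference was 0.24 ± 0.07 log2 (limma adjusted p = 0.0594), just outside the threshold. It passed in 3 of 20 fits that left out 1 mouse (without TGUT-145, TGUT-146 or WTT-144). TGUT-146 was the lowest mouse at 6662, and without it the difference was 0.17 (limma adjusted p = 0.0295). The second probe set, 1422420_at, lay below the filter at 52.4 to 73.6.

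The transgene difference for Mb was -0.14 ± 0.07 log2 (limma adjusted p = 0.306), and -0.081 without TGUT-146. Slow-fibre markers moved in the same comparison: 6 of 7 were called lower in transgenic mice, with a list median of -1.44 log2. Over all tested probe sets, 1.23% were called in it. With training averaged over genotypes, 0 of the 7 markers were called and their median was -0.04 log2, whereas Mb had 0.24. Their summed level was 2911 to 4333 in TG trained and 2783 to 5561 in TG untrained mice, against 7073 to 14494 in WT trained and 5147 to 17128 in WT untrained mice. Their part in the Mb level was not tested. The genes most like Mb were Tpm2, a tropomyosin (r = 0.926), Smtnl1 (0.920) and Ldhb, a lactate dehydrogenase subunit (0.914).

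With the transgene averaged over training, 0 of the 15 probe sets were called by limma, 3 had an unadjusted p under 0.05 (Hmox1 and both of Cpox; 17.3% of all tested), and 1.23% of all tested probe sets were called. Cpox differed by 0.25 ± 0.08 log2 on 1422492_at (limma adjusted p = 0.133) and by 0.10 ± 0.04 on 1422493_at (adjusted p = 0.175). For Alas1 1424126_at the difference was 0.13 ± 0.07 (adjusted p = 0.361), and for Tfrc 1452661_at 0.22 ± 0.28, with a 95% interval from -0.37 to 0.82. The Alas1 difference was 0.17 without wtt-137 and 0.083 without WTT-144, and the Tfrc difference was 0.41 without wtt-137 and 0.081 without TGUT-146. Neither gene was called in these fits.

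No member was called by limma in the comparisons within 1 genotype or 1 training state, or in the interaction. Training in transgenic mice gave 6 of 15 with an unadjusted p under 0.05. Over all tested probe sets that share was 17.4%, and 0.309% were called. Training in wild-type mice gave 4 of 15, with 7.87% over all tested probe sets and 0 called. The transgene gave 2 of 15 in trained mice (12.5% over all tested, 0.0516% called) and 2 of 15 in untrained mice (8.12% over all tested, 0.11% called). The interaction gave 0 of 15, with 2.91% over all tested and 0 called. With limma's array weights, members were called in 3 of these 5 comparisons, as given in the closing section.

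**Figure D4:**
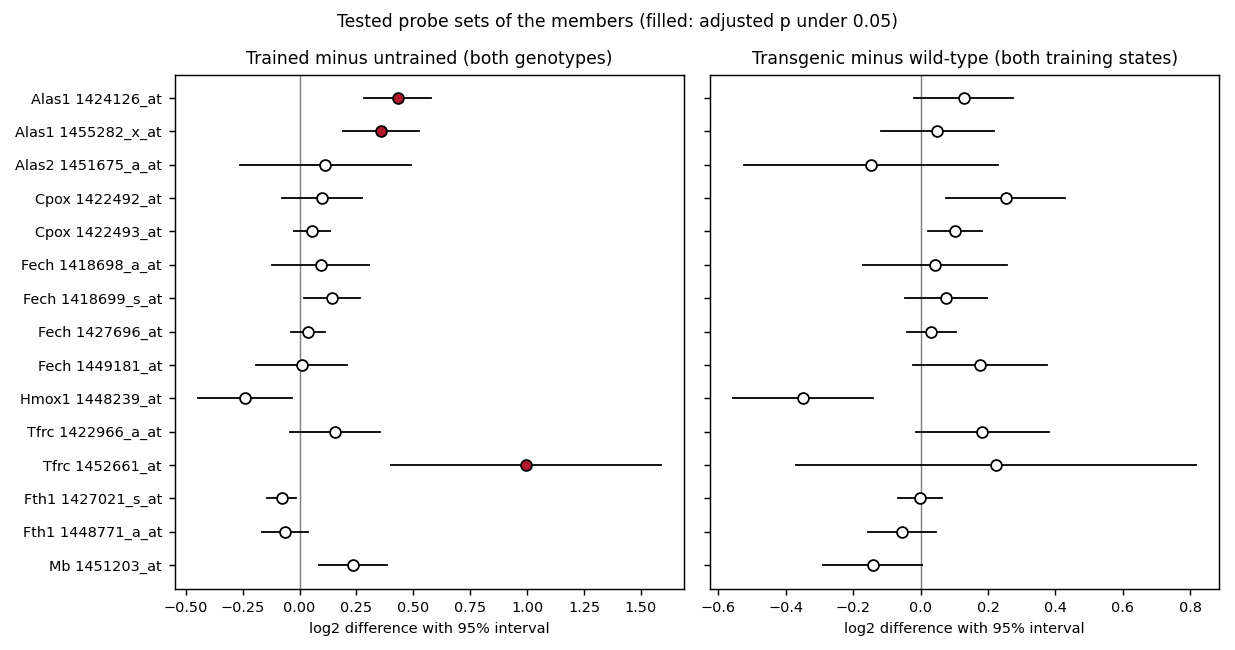
Log2 differences of the 15 tested probe sets, trained minus untrained averaged over genotypes and transgenic minus wild-type averaged over training, with 95% intervals. Filled points have an adjusted p under 0.05: both Alas1 probe sets (0.43 and 0.36) and Tfrc 1452661_at (0.99) with training, and none with the transgene.

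The wider pathway was read from 6 gene lists, 1 probe set a gene, against the 2.41% of all tested probe sets called higher and the 4.99% called in either direction with training. The lists, too, were chosen with earlier results of these data known, so their counts and medians are descriptions. Of 13 heme synthesis genes tested, 3 rose with training and 0 fell, with a list median of 0.13 log2 and 11 above 0. Besides Alas1 these were Uros, an enzyme of the middle of the pathway (0.14 log2, limma adjusted p = 0.0316), and Hccs, which attaches heme to cytochrome c (0.20, adjusted p = 0.0357). Uros averaged 357 ± 12.6 in TG trained and 322 ± 19.4 in TG untrained mice, and 357 ± 19.9 in WT trained and 316 ± 17.4 in WT untrained mice (SD, n = 5 each). Alad, which acts directly after Alas1, had 0.17 (adjusted p = 0.0679), and the porphyrin transporter gene Abcb6 had 0.17 (adjusted p = 0.0535), neither called. Slc25a38 (-0.07, adjusted p = 0.388) and Cox15 (-0.03, adjusted p = 0.92) lay below 0. The Uros call was kept in 12 of 20 fits without 1 mouse and the Hccs call in 7.

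Of 17 genes on the hemoprotein list, 2 rose and 0 fell (median 0.07 log2), against 2.41% called higher over all tested. The list also holds Uqcrfs1, whose product carries an iron-sulfur cluster and no heme. Sdhd, a subunit of respiratory complex II, rose by 0.33 (limma adjusted p = 0.00997), and Cyc1, cytochrome c1 of complex III, rose by 0.25 (adjusted p = 0.0195). Both calls were kept in all 20 fits without 1 mouse. Of 10 genes for mitochondrial iron and iron-sulfur clusters, 1 rose and 0 fell (median 0.09): Isca1, an iron-sulfur assembly factor, by 0.23 (adjusted p = 0.048), kept in 3 of 20 fits.

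Of 16 genes for iron uptake, storage and export, Tfrc rose and 1 fell (median -0.02), against 4.99% called in either direction over all tested: Pcbp1, whose product delivers iron to ferritin, by -0.22 log2 (limma adjusted p = 0.0208), kept in all 20 fits. Of 10 genes for heme breakdown and transport, 0 were called by limma (median -0.05), and 2 had an unadjusted p under 0.05, a share near the 20.7% of all tested. Of 8 genes known as regulators of Alas1, 0 rose and 1 fell (median -0.08). That was Arntl, a core clock gene, by -0.84 (adjusted p = 0.025), kept in 17 of 20 fits. Arntl averaged 97.2 ± 39.2 in TG trained and 249 ± 68.0 in TG untrained mice, and 192 ± 123 in WT trained and 345 ± 147.1 in WT untrained mice (SD, n = 5 each). The hour of sampling could not be read from the labels. Ppargc1a, a coactivator of Alas1 transcription, had 0.17 ± 0.26 (adjusted p = 0.796). With the transgene averaged over training, 0 genes of these 6 lists were called by limma, against 1.23% of all tested probe sets. Unadjusted limma p was under 0.05 for 4 of 13 heme synthesis and 4 of 10 mitochondrial iron genes, against 17.3% of all tested. The other lists had 3 of 10 (heme breakdown), 0 of 16 (iron uptake), 2 of 17 (hemoproteins) and 1 of 8 (regulators).

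**Figure D5:**
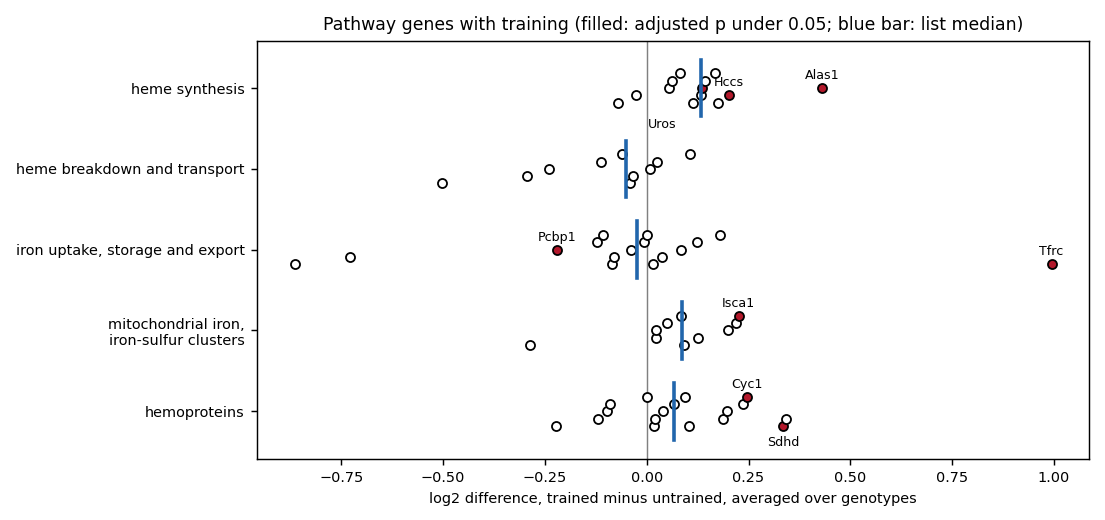
Log2 difference, trained minus untrained averaged over genotypes, of the genes of 5 pathway lists; each point is a gene, filled points have an adjusted p under 0.05 and blue bars are list medians. Alas1, Uros and Hccs are called among 13 heme synthesis genes, whose median is 0.13, and Tfrc (0.99) and Pcbp1 (-0.22) among 16 iron genes.

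Across the 20 mice, Alas1 and Tfrc (1452661_at) had r = 0.722, and 0.486 once group means were removed. The genes most like Alas1 were Mrpl46, a mitochondrial ribosomal protein (r = 0.833), Ndufv2, a complex I subunit (0.826), and Nme1, a nucleoside diphosphate kinase (0.824), with 0.547, 0.507 and 0.580 in that order within groups. For Tfrc they were Slco5a1 (0.920), Trak1 (0.903) and Lppos (0.902). Fech and Fth1, on their brightest probe sets, had r = -0.769 over the mice and -0.713 within groups. Among pairs of different members on their brightest probe sets, this r was the largest in size. The 2 Fth1 probe sets had r = 0.0609 with each other, and Fech was not set against the other one, 1448771_a_at. All of these share the same 20 arrays.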

How the data were processed

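RNA of 20 mouse skeletal muscles was measured on Affymetrix arrays, 1 per mouse. The authors deposited 1 linear intensity per probe set, already scaled between arrays as the values show; the summary method, genome build and the reason for 1745 empty cells (0.385%) could not be read from the sources at hand. Groups came from the titles. Gene symbols came from the platform's annotation.

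Values were transformed to log2(intensity + 66.7), the 20th percentile of the deposited table. After removal of 64 control probe sets, 13576 of 22626 remained at or above the 40th percentile of the mean over all arrays (log2 7.59). The 4 group means were fitted with limma 3.58.1 in R 4.3.3 with a variance trend; 7 contrasts were tested two-sided with Benjamini-Hochberg adjustment. Empty cells were treated as missing. P-values measure the spread between these mice. The code was tested on simulated data.

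The members and lists were chosen with earlier results of these data known. Named are all probe sets of the 8 genes and pathway list genes called in an averaged comparison. Alad, Abcb6, Slc25a38, Cox15, Ppargc1a and Uqcrfs1 are named without a call. The 3 tested genes most correlated with the brightest probe set are named for Alas1, Alas2, Tfrc and Mb, and only the first for Hmox1. Alternatives were other scalings, constants, filters, variance models, array weights, 1 probe set per gene, only the compared groups, and leaving out arrays. Promoters came from RefSeq tables of GRCm38.p6.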

Additional observations from a re-analysis of the deposited data

Results flagged for a closer look

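Of 80 sets of 4 or 5 mice examined, 6 held a value far from the others by Dixon's criterion; chance gives about 1 in 20. Tfrc accounts for 5 of the 6, and it has 6 of the 20 probe sets examined, which share the same mice. On 1452661_at, wtt-137 stood at 1602, with the next WT trained mouse at 492. The same mouse was highest on 1422967_a_at, at 141.5 against 90.3 for the next, and its array had the most empty cells. On 1422967_a_at, WTUT-135 at 79.6 lay above the other WT untrained mice, whose highest was 69.3. TGT-132 was the lowest TG trained mouse on 1422966_a_at, at 318 against 439 for the next, and on the 3′ control probe set, at 466 against 484, where the group had 4 values. For Alas1 1455282_x_at, WTUT-142 at 424 lay above the other WT untrained mice, whose highest was 328.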

How the results depend on the processing

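No paired analysis was possible because the mouse numbers are unique and the groups share none. Both Alas1 probe sets kept their training call under every alternative run (0.39 to 0.47 log2 for 1424126_at over 11, 0.30 to 0.45 for 1455282_x_at over 10). Tfrc 1452661_at kept it under 7 of 11 (0.82 to 1.18; adjusted p 0.00137 to 0.0652), and lost it with median centring, the median as constant, no filter and robust variance. Mb gained a call under 3 of 11 and Hmox1 under 1. With array weights 7 of the 15 were called for training averaged over genotypes, 6 for training in transgenic mice, 2 for training in wild-type mice and 1 for the transgene in trained mice; leaving out 1 mouse gave 2 to 5, 0 to 1, 0 to 1 and 0 to 0, and 0 to 1 for the transgene averaged. 

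Over all probe sets, training averaged called 678, against 409 with median centring, 448 with no filter, 2771 with array weights, 410 without the 2 arrays with the most empty cells and 279 to 1284 without 1 mouse. Training in transgenic mice called 42, against 148 with quantile normalization, 11 with median centring, 69 with a constant of 1, 6 with no filter, 99 at the 60th percentile, 65 with no trend, 67 with robust variance, 2467 with array weights, 125 without the 2 arrays, 24 with 1 probe set per gene, 1 with only the compared groups and 2 to 762 without 1 mouse. Training in wild-type mice called 0, 92 with array weights and 0 to 4 without 1 mouse. The transgene averaged called 167, against 111 with no filter, 662 with array weights, 399 without the 2 arrays, 102 with 1 probe set per gene and 79 to 526 without 1 mouse. In trained mice it called 7, against 13 at the 60th percentile, 1016 with array weights, 12 without the 2 arrays, 4 with 1 probe set per gene, 26 with only the compared groups and 2 to 1.4e+02 (rounded to 2 digits; highest without wtt-137) without 1 mouse; in untrained mice 15, against 94 with array weights, 0 with only the compared groups and 2 to 26. The interaction called 0, and 7 with array weights.

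Small differences changed sign. Transgene averaged turned to 0.029 (quantile) and 0.0020 (array weights) for Fth1 1427021_s_at and to 0.010 (quantile) for 1448771_a_at, and the transgene in untrained mice to -0.16 for Tfrc 1452661_at with array weights. Of 105 differences (15 probe sets in 7 comparisons), 31 took both signs over the fits without 1 mouse, none of them a call: 2 with the transgene averaged, 1 with training averaged, 4 and 8 with the transgene in trained and untrained mice, 4 each with training in transgenic and wild-type mice, and 8 for the interaction. Among them were Alas1 1424126_at with the transgene in trained mice (-0.047 to 0.13), Fech 1418698_a_at with the transgene averaged (-0.0093 to 0.094), Fech 1449181_at with training averaged (-0.048 to 0.070), Fth1 1427021_s_at with the transgene averaged (-0.017 to 0.011), Mb with the transgene in untrained mice (-0.17 to 0.0040) and the interaction (-0.17 to 0.0064), and Tfrc 1452661_at with the transgene in untrained mice (-0.092 to 0.40) and the interaction (-0.14 to 0.42). Others were Alas2 with training in transgenic mice (-0.13 to 0.19) and in wild-type mice (-0.017 to 0.30), Alas1 1455282_x_at with the transgene in trained mice (-0.11 to 0.071) and Cpox 1422492_at with training in transgenic mice (-0.024 to 0.14). The causes were not tested.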
